A study of Gallus gallus with 40 samples.

Results

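A set of 8 chicken genes of the sarcomere, chiefly around its Z-disc, and of the intermediate filaments was followed on the arrays. They are CSRP3, ANKRD1, MYOZ2, DES, MYBPC1, LDB3, PDLIM3 and VIM, found by the RefSeq transcript that each probe was designed on. Of the 56401 probes on the array, 11 belonged to 7 of these genes, among 13913 genes with a symbol. No probe could be matched to MYBPC1, slow myosin-binding protein C, which is therefore not analysed here. For a gene with several probes, the probe with the highest mean signal over all arrays (the leading probe) stands for the gene, and the others are given where they differ. Breast muscle (pectoralis major) RNA of male commercial ROSS broilers, raised under 1 industrial practice on 5 farms, was hybridized to 40 one-color arrays, 1 bird each. In the first study, birds were graded by white striping (WS), white fatty lines along the fillet: 4 birds had no WS (non-WS), 7 mild, 6 moderate and 4 severe WS. In the second, birds with severe wooden breast (WB), a hardening of the fillet, were set against birds without WB. WB1 (2 birds, mild WS) and non-WB1 (3 birds, mild WS), like WB2 (3 birds, moderate WS) and non-WB2 (4 birds, moderate WS), were 49 days old. WB3 (3 birds, mild WS) and non-WB3 (4 birds, severe WS) were at most 45 days old, so within this youngest pair the WS grade differed as well as WB. No bird of the second study was free of WS, and the labels used here give no farm for a bird and no age for the WS study. The methods describe its birds with mild, moderate and severe WS as 7 weeks old and of a Ross hybrid. They report that no bird without WS was found in that collection, and do not describe the 4 non-WS birds. On these 4 birds 3 of the WS contrasts rest, so the source of the birds and the WS grade cannot be told apart there.

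The Z-disc anchors the thin filaments of neighbouring sarcomeres to one another and to the cell's cytoskeleton, and many of its proteins also report stretch and load to the nucleus. Alpha-actinin is the main cross-linker, and proteins with PDZ or LIM domains, such as LDB3, PDLIM3 and CSRP3, dock on it. Desmin filaments tie the Z-discs of adjacent myofibrils together, whereas vimentin is the filament of mesenchymal cells and of immature muscle fibres. In mammals, CSRP3 and MYOZ2 are mainly products of cardiac and slow fibres, and ANKRD1 is a transcript that muscle raises under mechanical strain. The chicken breast is made almost wholly of fast glycolytic fibres.

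All 11 probes were well above background on all 40 arrays, none was saturated, and all passed the filter on dim probes in both studies. The 4 fast muscle markers found on the array by symbol had summed signals of 699000 to 837000 on severe WB arrays and 796000 to 908000 on non-WB arrays. These markers were thus expressed in both groups, whose tissue is labelled breast meat. One severe WB array, WB3 replicate 3, stood apart. Its log2 signals over all probes had a mean correlation of 0.938 with the other 7 severe WB arrays and 0.972 with the 11 non-WB arrays, whereas the other severe WB arrays ranged from 0.96 to 0.971 and from 0.929 to 0.972. WB2 replicates 2 and 3 also correlated slightly more with the non-WB arrays. Values without WB3 replicate 3 are given below as description. It was singled out on these same arrays for its likeness to non-WB, so leaving it out favours a larger WB difference. Signals are quantile normalized within each study and have no unit; levels were not compared between the studies or between genes. Within every slide the arrays' positions followed the groups, so position and group cannot be told apart.

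The contrast of all severe WB birds with non-WB birds asks which of the genes differ with WB once each pair is matched for age. Non-WB2 replicate 4 and non-WB3 replicate 4 were the only birds of their groups on slide 5. With slide in the model they carried no weight in the WB contrasts. Transcripts of CSRP3 and MYOZ2 were several fold higher in severe WB, ANKRD1 and PDLIM3 were modestly higher, and LDB3 was lower. Of the 11 probes, 9 were called at an FDR of 0.05 or less and a fold change of 1.2 or more, where 23.2% of the 34283 probes tested were called. They were 7 higher probes, against 11.5% of all probes, and 2 lower ones, against 11.7%. The members were chosen with earlier results of these data known, and MYOZ2, LDB3 and PDLIM3 have several probes each. These shares are therefore given beside the counts and are no test of the set. Of the 7 genes, 4 rose, 1 fell and 2 (DES and VIM) did not pass. The median log2 fold change was 0.52 over the 7 genes and -0.01 over all probes. Without WB3 replicate 3 all 11 probes were called, but so was 37.7% of all probes. For each gene below, the severe WB birds beyond non-WB birds are counted, but the same was not counted over all probes.

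CSRP3 encodes the muscle LIM protein, which binds alpha-actinin and is known in mammals from inherited cardiomyopathies. Its normalized signals were 12200 and 11300 in WB1, 3910, 2350 and 5540 in WB2, and 19200, 16200 and 679 in WB3. They were 1380, 803 and 4180 in non-WB1, 168, 1140, 546 and 625 in non-WB2, and 157, 3040, 500 and 313 in non-WB3. The WB1 birds and 2 of the WB3 birds were far above every non-WB bird, 5 of the 8 severe WB birds in all exceeded the highest non-WB value, and WB3 replicate 3 lay among the non-WB birds. Over the 3 pairs the log2 fold change was 3.02 ± 0.74 (SE, limma), 8.11-fold, with an adjusted p of 0.0153. Without WB3 replicate 3 it was 3.53 ± 0.58. Among the members CSRP3 also differed most between the 11 non-WB birds, with a 26.6-fold range. These birds span mild to severe WS and both ages, and within non-WB3 alone the range was 19.4-fold.

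MYOZ2, a myozenin that holds calcineurin at the Z-disc, followed the same birds. The leading probe read 24100 and 17700 in WB1, 16700, 8770 and 9840 in WB2, and 32100, 13500 and 2390 in WB3. It read 3140, 2040 and 9610 in non-WB1, 2110, 4690, 1730 and 2460 in non-WB2, and 1780, 8310, 3240 and 2270 in non-WB3. Of the 8 severe WB birds, 6 exceeded every non-WB bird, and the non-WB birds that came closest were non-WB1 replicate 3 and non-WB3 replicate 2, the highest of the non-WB birds in CSRP3 too. Severe WB exceeded non-WB by 2.00 ± 0.50 on the log2 scale with an adjusted p of 0.0161 (limma), and 1.94 ± 0.41 for the second MYOZ2 probe (adjusted p = 0.0101). It was 2.34 ± 0.39 without WB3 replicate 3.

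**Figure D1:**
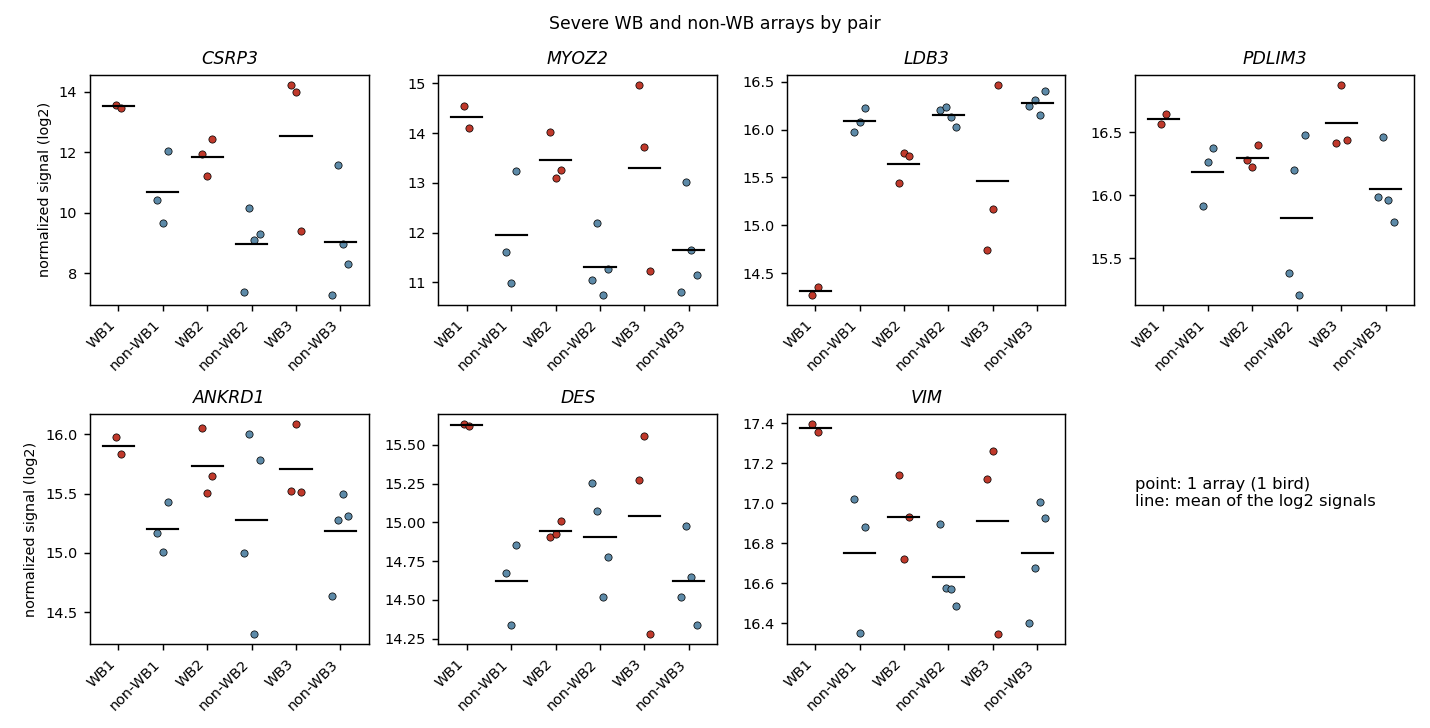
Normalized signal (log2, vertical axis) of the leading probe of each gene in the severe WB groups (red) and their non-WB groups (blue), left to right by pair; each point is 1 bird and each line the mean of the log2 signals. CSRP3 and MYOZ2 are higher and LDB3 lower in most severe WB birds, and in CSRP3, MYOZ2, LDB3, DES and VIM 1 WB3 bird lies with or beyond the non-WB birds.

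LDB3 (also called ZASP or Cypher), a PDZ-LIM protein that binds alpha-actinin and keeps the Z-disc intact under contraction, was the only member that fell. It read 19800 and 21000 in WB1, 44600, 55300 and 54000 in WB2, and 27400, 36800 and 90500 in WB3. The non-WB birds were tightly grouped: 64400, 69300 and 76600 in non-WB1, 75400, 77100, 71600 and 66800 in non-WB2, and 77600, 81300, 72900 and 86900 in non-WB3. Thus 7 of the 8 severe WB birds were below every non-WB bird, and WB3 replicate 3 was above all of them. This is a log2 fold change of -1.03 ± 0.18, 2.05-fold lower, with an adjusted p of 0.00633, the smallest among the leading probes of the set (limma). The second probe, on another LDB3 transcript, fell less, by 0.60 ± 0.11 on the log2 scale (adjusted p = 0.00731). Without WB3 replicate 3 the leading probe's value was -1.20 ± 0.09. Over the 11 non-WB birds LDB3 varied 1.35-fold, the narrowest range of the 7 genes.

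PDLIM3, the actinin-associated LIM protein, belongs to the same PDZ-LIM family as LDB3 and moved the other way. Its leading probe read 96900 and 103000 in WB1, 79700, 76400 and 86200 in WB2, and 87200, 120000 and 88800 in WB3. It read 61700, 78600 and 84900 in non-WB1, 42800, 75200, 38000 and 91500 in non-WB2, and 65000, 90500, 63900 and 56700 in non-WB3. Every severe WB bird exceeded 7 of the 11 non-WB birds, and 3 of the 8 were above all non-WB birds. The highest non-WB bird, non-WB2 replicate 4 (91500), carried no weight in the fit. The PDLIM3 log2 fold change was 0.52 ± 0.14 (adjusted p = 0.0231, limma). The other bright probe gave 0.56 and the dim probe on another transcript 0.66, both called (adjusted p = 0.015 and 0.0204). When arrays were scaled to their 75th percentile in place of quantile normalization, the PDLIM3 value was 0.24 and was not called (adjusted p = 0.216).

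ANKRD1, the cardiac ankyrin repeat protein, sits with titin in the I-band next to the Z-disc. Its signals were 64400 and 58300 in WB1, 68100, 46400 and 51500 in WB2, and 47200, 69500 and 46700 in WB3. They were 36900, 33000 and 44200 in non-WB1, 32700, 65500, 20400 and 56400 in non-WB2, and 25500, 39800, 46200 and 40700 in non-WB3. All 8 severe WB birds exceeded 9 of the 11 non-WB birds, but 2 non-WB2 birds reached severe WB levels. Of these, replicate 4 (56400) carried no weight in the fit. Over the pairs the value was 0.63 ± 0.21 on the log2 scale (adjusted p = 0.0426, limma). This call was close to the threshold: it was lost in 12 of the 19 fits that left out 1 array (0.50 to 0.78, with adjusted p from 0.0161 to 0.0964), and under 75th percentile scaling the value was 0.39 (adjusted p = 0.188). WB3 replicate 3, at 46700, was not set apart from its group in ANKRD1 or in PDLIM3.

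DES (desmin) and VIM (vimentin), the intermediate filament genes, did not pass the test over the 3 pairs. DES read 50800 and 50400 in WB1, 30700, 31000 and 32900 in WB2, and 39700, 48200 and 19900 in WB3. It read 26100, 20700 and 29600 in non-WB1, 39100, 34500, 23400 and 28100 in non-WB2, and 23500, 32300, 25700 and 20700 in non-WB3. The WB1 birds stood clear of non-WB1, the WB2 birds lay within the non-WB2 range, and WB3 replicate 3 was the lowest bird of the study. The log2 fold change was 0.44 ± 0.17 (adjusted p = 0.0712, limma), and 0.56 ± 0.12 (adjusted p = 0.00354) without WB3 replicate 3, whereas 75th percentile scaling gave 0.20 (adjusted p = 0.343).

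VIM read 172000 and 168000 in WB1, 145000, 108000 and 125000 in WB2, and 143000, 157000 and 83300 in WB3. It read 133000, 83600 and 121000 in non-WB1, 122000, 97700, 97300 and 91900 in non-WB2, and 86700, 105000, 132000 and 125000 in non-WB3. Of the severe WB birds 5 exceeded every non-WB bird, and WB3 replicate 3 was below them all. The log2 fold change was 0.36 ± 0.15 (adjusted p = 0.0882, limma), and 0.46 ± 0.13 (adjusted p = 0.0119) without WB3 replicate 3, whereas 75th percentile scaling gave 0.08.

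Marker transcripts of cells other than muscle fibres differed in the same birds. Of the 7 fibroblast markers, 6 rose, where 11.5% of all probes did, and none fell, with a median log2 fold change of 1.05, and of the 8 macrophage markers 6 rose and none fell (median 1.1). Summed fibroblast marker signals were 213000 to 564000 in severe WB birds and 196000 to 312000 in non-WB birds. Summed macrophage marker signals were 126000 to 343000 in severe WB birds and 133000 to 210000 in non-WB birds. WB3 replicate 3 had the lowest sums among the severe WB birds, 213000 and 126000. Of the fast muscle markers, MYBPC2 fell and the other 3 did not pass. No endothelial, smooth muscle or erythrocyte marker rose, TEK (endothelial) and RGS5 (smooth muscle) fell, and of the 5 adipocyte markers LPL rose. In such whole-tissue RNA, fewer cells of a type and less RNA per cell cannot be told apart, and the part of these cell types in the values of VIM and the other members was not tested.

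By pair, the differences of CSRP3 were 2.82 ± 1.37 in WB1 against non-WB1, 2.98 ± 1.23 in WB2 against non-WB2 and 3.26 ± 1.23 at 45 days or under. Those of LDB3 spread more: -1.78 ± 0.34, -0.55 ± 0.30 and -0.78 ± 0.30 for the same 3 pairs. DES was 1.00 ± 0.32 in the first pair and -0.00 ± 0.28 in the second. With both 49-day pairs together, 7 of the 11 probes were called, from CSRP3, MYOZ2, LDB3 and PDLIM3, where 15.7% of all probes were. Of these, 5 were higher and 2 lower, against 7.43% and 8.24% of all probes. Their log2 fold changes were 2.90 (adjusted p = 0.0478), 2.26 (0.0311), -1.16 (0.0144) and 0.56 (0.0488, limma). The probe count fell to 0 without WB1 replicate 1 and was 9 without WB3 replicate 3, where 26.3% of all probes were called. Over all probes, leaving out 1 array gave from 35 called (without WB1 replicate 2) to 9089 (without WB3 replicate 3). The swing was thus not particular to the members. Leaving out 1 array at a time kept the 49-day call of LDB3 in 17 of 19 fits, of MYOZ2 in 12, of CSRP3 in 8 and of PDLIM3 in 5. Under 75th percentile scaling CSRP3 (2.73, adjusted p = 0.056) and PDLIM3 (0.21, adjusted p = 0.4) were not called. With no slide term, where every bird carries weight, PDLIM3 was 0.45 (adjusted p = 0.116, limma) and was not called either. Of all called probes at 49 days 47.4% were higher, and 37.1% under 75th percentile scaling. In the first pair alone only the 2 LDB3 probes were called, where 3617 of all probes (10.6%) were, and in the second pair none of the 34283 was.

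In the birds of 45 days or under, no probe of the array was called (0%), although 3683 had an unadjusted p of 0.05 or less. The members' values pointed the same way as at 49 days, between -0.78 for LDB3 and 3.26 for CSRP3, with larger errors. Without WB3 replicate 3, CSRP3 (4.82 ± 1.04, adjusted p = 0.0145), MYOZ2 (2.51 ± 0.71, adjusted p = 0.0367) and LDB3 (-1.28 ± 0.16, adjusted p = 0.00235) were called (limma), where 12.3% of all probes were. These calls depend on leaving out a bird that was singled out on the same data and are no independent support. The WB difference itself was not shown to depend on age, which here cannot be told apart from WS grade and slide. WB3 and non-WB3 differed in WS grade, and all WB3 birds were on slide 4. For the 7 genes the younger minus the older contrast lay between -0.78 (MYOZ2, whose second probe gave 0.39) and 0.38 (LDB3), with SE from 0.30 to 1.53 and adjusted p of 0.976 or more, and no probe of the array was called (0%, with 1444 at an unadjusted p of 0.05 or less). Without WB3 replicate 3 this difference was 1.93 ± 1.25 for CSRP3 and -0.06 ± 0.33 for PDLIM3. Its sign turned for MYOZ2 (0.26 ± 0.85), LDB3 (-0.12 ± 0.19), DES (0.20 ± 0.27) and VIM (0.06 ± 0.27). Adjusted p was 0.991 or more, and again no probe was called (limma).

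**Figure D2:**
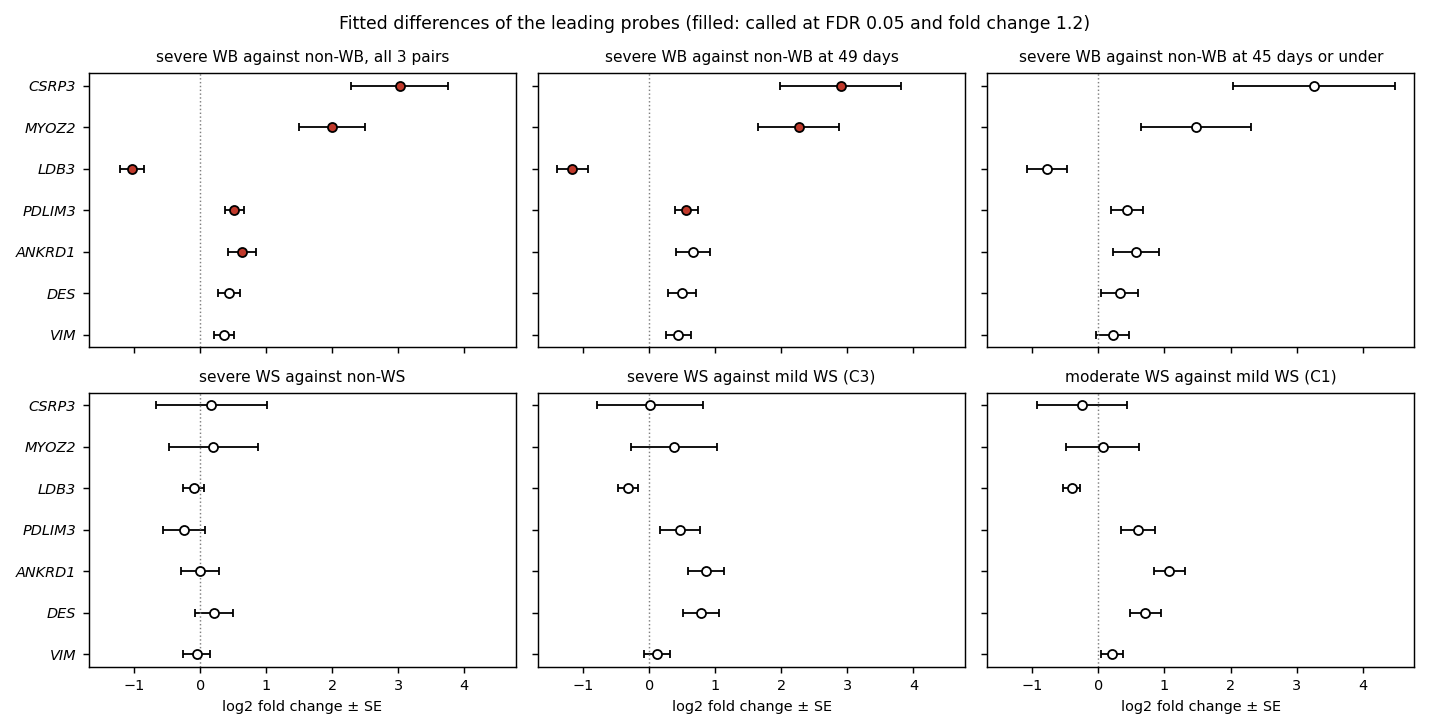
Fitted log2 fold change (horizontal axis, bars are ± 1 SE) of the leading probe of each gene in 3 severe WB contrasts (top) and 3 WS contrasts (bottom); filled points were called. CSRP3 is highest, at about 3, and LDB3 lowest, at about -1, in each WB contrast, the first of which takes in the birds of the other two, and no WS contrast has a called gene.

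Within slides, where severe WB and non-WB arrays had been hybridized together, the differences of CSRP3 were 2.98 on slide 3, 3.26 on slide 4 and 3.58 on slide 5. Those of MYOZ2 were 2.13, 1.48 and 2.68, and those of LDB3 -0.55, -0.78 and -1.83. Of the WB study, slide 3 held only WB2 and non-WB2 birds and slide 4 only WB3 and non-WB3 birds. Their values thus repeat the differences by pair and are no further check. Slide 5 set the WB1 birds against non-WB1 birds and replicate 4 of non-WB2 and of non-WB3. All 3 slides gave the same direction for these genes, with overlap between the groups only on slide 4, which holds WB3 replicate 3. The share of all probes without overlap was not counted.

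Other genes of the sarcomere were examined as lists. Of 27 other Z-disc genes, 5 rose and 4 fell in severe WB over the 3 pairs, where 11.5% of all probes were higher and 11.7% lower, with a median log2 fold change of -0.07. FHL1, a four-and-a-half-LIM protein of stressed muscle, rose by 1.5 ± 0.34, the chaperone CRYAB by 0.84 ± 0.21, FHL3 by 0.66 ± 0.17, and MYOT (myotilin) by 0.65 ± 0.18. PDLIM7 also rose. FHL2 fell by 1.97 ± 0.52 on the log2 scale, MYOZ1, the fast-fibre relative of MYOZ2, by 0.54 ± 0.15, ACTN2 (alpha-actinin) by 0.41 ± 0.09 and NRAP by 0.38 ± 0.13. TCAP (-0.20 ± 0.09), FLNC (-0.20 ± 0.36) and XIRP1 (-0.40 ± 0.31) did not pass. Without WB3 replicate 3, 8 rose and 5 fell, where 37.7% of all probes were called.

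Among the genes of the thick filament and M-band, 1 of 5 rose and 3 fell, with a median of -0.59, against 11.5% higher and 11.7% lower among all probes. MYBPC3, the cardiac myosin-binding protein C, rose by 2.24 ± 0.57 (adjusted p = 0.0177), whereas MYBPC2, the fast form, fell by 0.88 ± 0.19 (adjusted p = 0.0115). MYOM2, a cross-linker of the M-band, fell by 0.59 ± 0.10, SMYD1 fell by 0.79 ± 0.23, and MYL4 did not pass. Of 6 slow fibre genes (median 0.18), 2 rose and 2 fell beside the same shares of all probes. TNNI1 (slow troponin I) rose by 2.62 ± 0.67 and TPM3 (slow tropomyosin) by 1.57 ± 0.39, while CASQ2 and SLN fell by 0.48 and 0.38, and TNNC1 and ATP2A2 did not pass. ANKRD2, the slow-fibre relative of ANKRD1, rose by 2.36 ± 0.60 (adjusted p = 0.0174). Of the 3 intermediate filament genes none passed, SYNM (synemin) among them at -0.20 ± 0.12. MYL2, MYL3, TNNT1 and NES had no probe that was tested here.

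**Figure D3:**
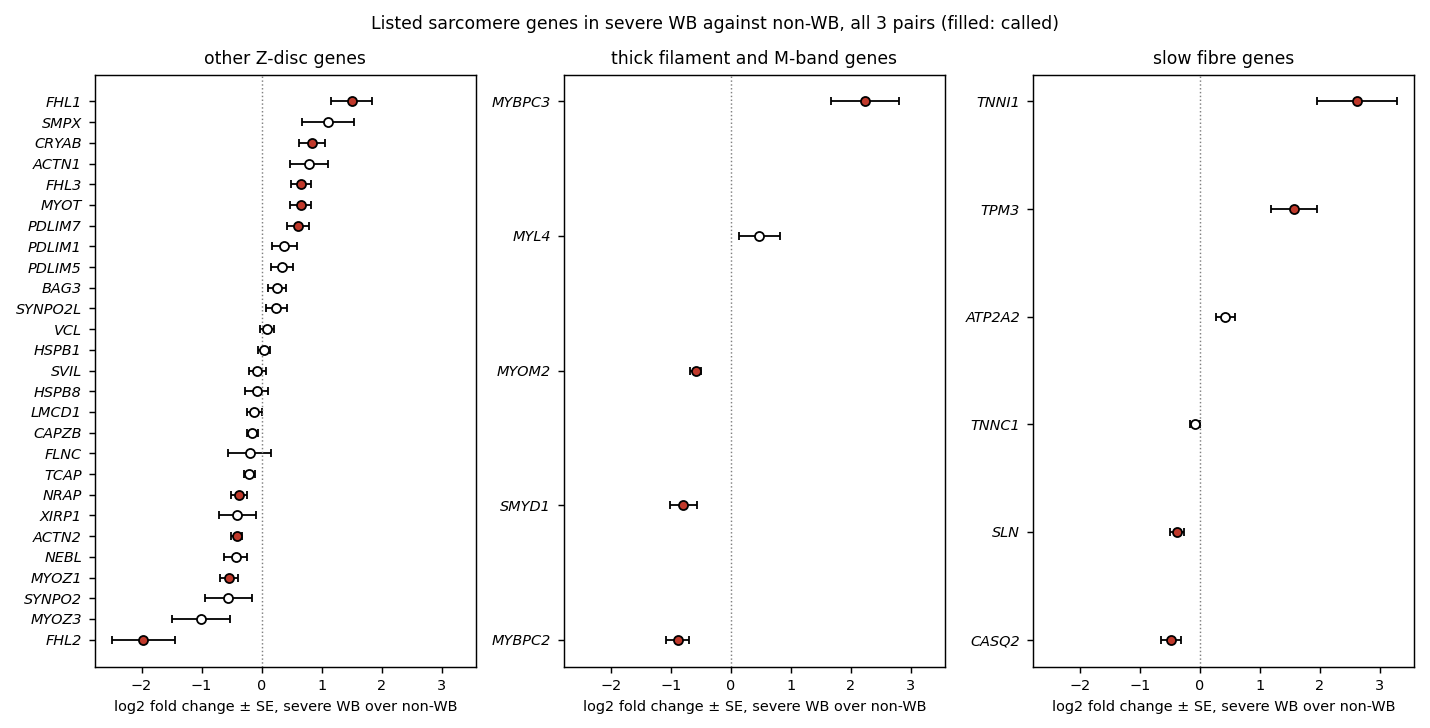
Fitted log2 fold change of severe WB over non-WB (horizontal axis, bars are ± 1 SE) over the 3 pairs for the listed Z-disc, thick filament and M-band, and slow fibre genes; filled points were called. Each list holds genes called in both directions, with TNNI1 at 2.62, MYBPC3 at 2.24 and FHL2 at -1.97 farthest from 0.

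In the WS study the comparison with non-WS asks whether striping of any grade went with a change in these genes. The non-WS birds may also differ from the graded birds in source, which cannot be told apart from grade here. None of the 11 probes was called in severe WS against non-WS, where 0.00309% of 32388 probes was (1 probe, which has no symbol here), and 1801 had an unadjusted p of 0.05 or less. The 7 genes lay between -0.24 (PDLIM3) and 0.21 (DES), with SE from 0.16 to 0.84. CSRP3 read 241, 395, 77 and 146 in severe WS and 180, 62.9, 123 and 480 in non-WS, with a log2 fold change of 0.17 ± 0.84. LDB3 read 57500, 68200, 49900 and 50900 in severe WS and 55600, 75500, 62100 and 49700 in non-WS, a difference of -0.09 ± 0.16. In both genes the groups overlapped throughout. The dim PDLIM3 probe differed from the bright ones, at 0.87 ± 0.45 (adjusted p = 0.893) against -0.24 and -0.20.

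**Figure D4:**
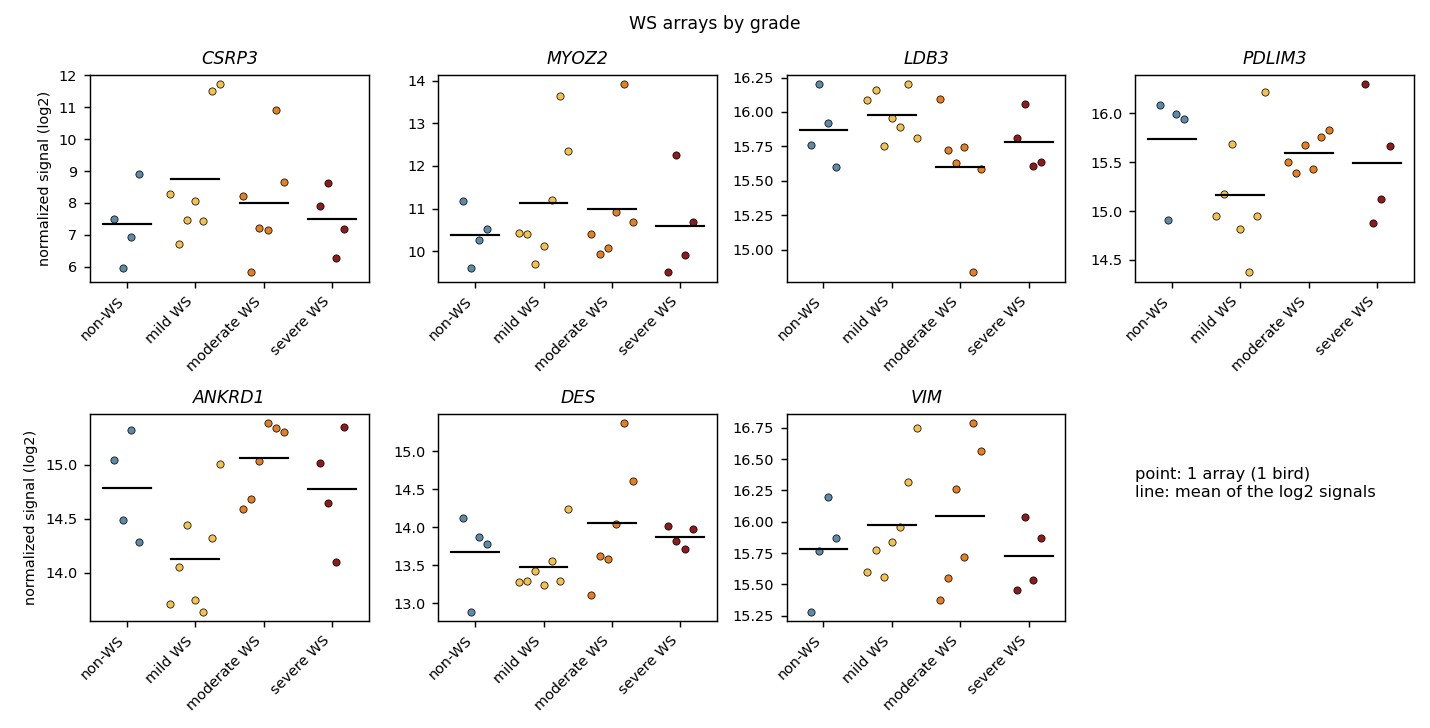
Normalized signal (log2, vertical axis) of the leading probe of each gene in non-WS, mild, moderate and severe WS birds; each point is 1 bird and each line the mean of the log2 signals. The grades overlap in every gene, ANKRD1 has its lowest mean in mild WS, and 3 birds with mild or moderate WS stand high in CSRP3 and MYOZ2.

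Mild WS had the lowest ANKRD1 of the 4 grades. Its signal was 33700, 23000, 41000 and 19900 in non-WS, ranged from 12700 to 32800 around a median of 17000 in mild WS, and from 24700 to 42700 around 37000 in moderate WS. The severe WS birds read 33200, 25600, 17500 and 41700. Its log2 fold change was -0.87 ± 0.27 in mild WS against non-WS (adjusted p = 0.172), 1.07 ± 0.23 in moderate against mild WS (0.483), and 0.86 ± 0.27 in severe against mild WS (0.349, limma). None of these was called (0.00309% of probes were in mild WS against non-WS and 0% in the other contrasts), and ANKRD1 was between 0.93 and 1.1 in moderate against mild WS under the 15 other settings tried, single arrays left out aside. On the arrays of slides 1 and 2 alone it was 0.96.

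DES read 17900, 7600, 15100 and 14100 in non-WS, 9660 to 19400 (median 10100) in mild WS, and 8810 to 42300 (median 14800) in moderate WS. In severe WS it read 16500, 14500, 13400 and 16100. Mild WS replicate 7 was above every severe WS bird and the other mild WS birds were below them all. The share of all probes separated in this way was not counted. DES was 0.71 ± 0.23 in moderate against mild WS (adjusted p = 0.552) and 0.78 ± 0.27 in severe against mild WS (0.397), neither called. The study chose DES for severe against mild WS on these birds, so its value there is not independent evidence of its direction. With no slide term the severe against mild value was 0.40, and on slides 1 and 2 alone the moderate against mild value was 0.29.

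PDLIM3 was 0.61 ± 0.26 (adjusted p = 0.571) and LDB3 -0.41 ± 0.13 (0.552) in moderate against mild WS. On slides 1 and 2 alone they were 0.37 and -0.19, and 75th percentile scaling gave -0.21 for LDB3. The second LDB3 probe gave 0.11 ± 0.10, so the 2 probes of this gene differed in sign there. VIM was 0.20 ± 0.17 and MYOZ2 0.07 ± 0.55. Between severe and moderate WS all 7 genes lay between -0.21 (ANKRD1) and 0.31 (MYOZ2), with adjusted p of 0.881 to 0.965.

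No difference of CSRP3 or MYOZ2 between grades was called, and their highest values came from a few birds. On slides 1 and 2, which held 16 WS-study birds of all 4 grades, CSRP3 read 56.8 to 480 and MYOZ2 725 to 4900. On slides 3 to 5, which held 5 birds with mild or moderate WS, CSRP3 read 174 to 3390 and MYOZ2 1650 to 15600. Mild WS replicates 6 and 7 (CSRP3 2870 and 3390, MYOZ2 12800 and 5250) and moderate WS replicate 5 (1940 and 15600) had the highest values of both genes. Severe WS replicate 2, on slide 1, came next in MYOZ2 (4900) and close to mild WS replicate 7. Moderate WS replicate 5 also had the highest DES (42300) and VIM (113000) and the lowest LDB3 (29200) of the study. The part of the slide in these values was not tested, since no non-WS or severe WS bird was on slides 3 to 5.

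Across birds, CSRP3 and MYOZ2 varied together. Pearson's r between their log2 signals was 0.94 over the 19 birds of the WB study (Spearman's rho 0.91) and 0.82 over the 21 of the WS study (0.61). It was 0.93 and 0.73 without the 2 birds farthest from the median of CSRP3. Among the 11 non-WB birds alone r was 0.86, and 0.62 without the 2 birds farthest out, both high in both genes. DES and LDB3 ran opposite, with r of -0.79 in the WB study and -0.84 in the WS study, but 0.06 among the non-WB birds. Spearman's rho for this pair was -0.67 in both studies. Without the 2 birds farthest from the median of DES, r was -0.65 in the WB study and -0.64 in the WS study. These values are descriptions, since probes of 1 array share its hybridization and the WB groups differ in CSRP3, MYOZ2 and LDB3.

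**Figure D5:**
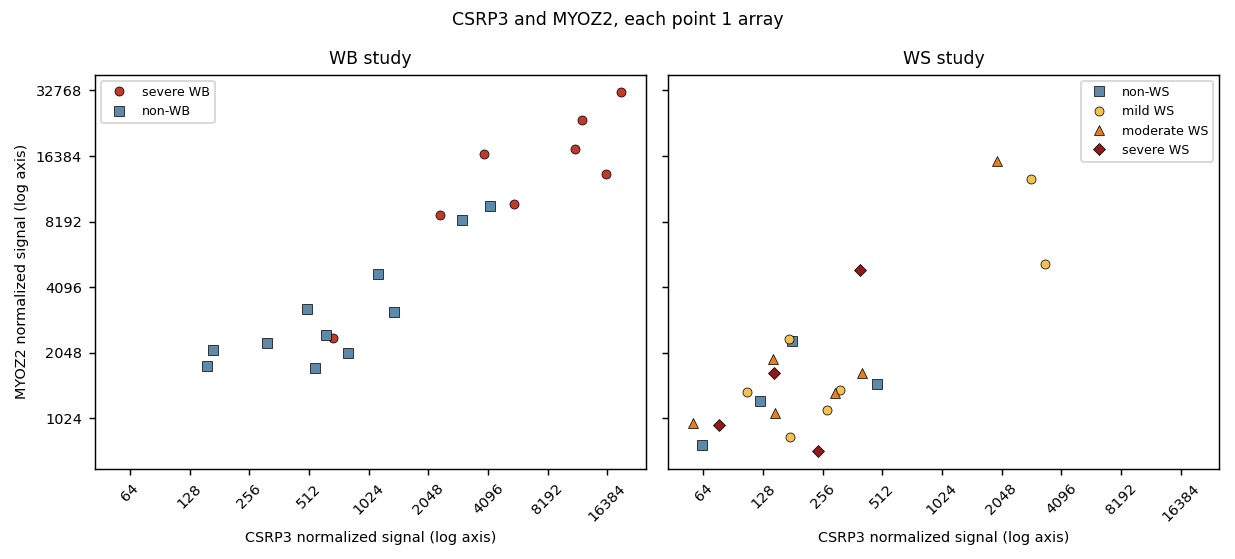
MYOZ2 against CSRP3 normalized signal (both axes logarithmic, base 2), each point 1 bird, in the WB study (left) and the WS study (right). The birds form 1 rising band in each study, with most severe WB birds at its upper end and 1 severe WB bird among the non-WB birds.

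The genes most alike to each member were taken by the lower of its 2 Pearson r, over the 21 and the 19 birds, among 8714 named genes. For CSRP3 they were ANKRD2 (0.85 in the WS study and 0.87 in the WB study), MYOZ2 and RNF19B, and for MYOZ2 TPM3 (0.86 and 0.92), GPX1 and CSRP3. For ANKRD1 the first was PDLIM3 (0.72 and 0.76), and for PDLIM3 it was the chaperone partner BAG3 (0.80 and 0.76), followed by CDKN1B and AMPD3. DES was nearest to UCHL1 (0.88 and 0.82), UCK1 and MRAS, and LDB3 to ALKBH5 (0.84 and 0.93), FBXW11 and ZRSR2. VIM was nearest to LGALS1A (0.85 and 0.87), BTK, a kinase of blood cells, and ANXA2. CSRP3 and MYOZ2 were each among the other's nearest genes, whereas PDLIM3 was the nearest gene to ANKRD1 but not the reverse.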

How the data were processed

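Per the file headers, the authors scanned the arrays and extracted them with Agilent Feature Extraction 10.7.1.1, and the deposited signal intensity is background-subtracted, on a linear scale and not normalized between arrays. A second deposited table of intensity values equals the processed signal on WB arrays and holds the authors' normalized values on WS arrays; it served as an alternative. Probes were named through RefSeq accessions (25957 probes, 13913 genes), DES through the study's own gene list. Members, lists and tests were chosen with earlier results of these data known. In WS-study labels the grade stands under the field for wooden breast, so groups were taken from titles.

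Spots of a probe were averaged. A probe was kept if each array of the study had it well above background, unflagged and at a signal of at least 20. Signals were quantile normalized per study and converted to log2. Linear models used limma 3.58.1 (R 4.3.3), slide as a fixed factor and all groups of a study together. Mild WS replicate 7 is alone on its slide among WS-study arrays and does not inform those fits. Likewise, non-WB2 replicate 4 and non-WB3 replicate 4, alone of their groups on slide 5, only set the slide terms. They carry no weight in the WB contrasts. P-values were Benjamini-Hochberg adjusted over all probes, and probes at an FDR up to 0.05 with at least a 1.2-fold difference were called. The procedure was also run on simulated data with independent normal noise. These held no outlying bird and no correlated probes, so they cannot show how calls behave in the present data. Slides were taken from the barcodes in the file headers, which give 5 slides of 8 arrays, although the labels speak of 8 slides. All arrays were scanned on 1 day. No 2 arrays were duplicates (correlations of 0.901 to 0.982 in the WS study, 0.912 to 0.985 in the WB study). The median signal per array was 76.4 to 298, with 66.9% to 78.6% of spots well above background. It was 273 to 298 in WB1, 158 to 218 in WB2 and 122 (replicate 3) to 238 in WB3. The non-WB1, non-WB2 and non-WB3 arrays had 140 to 179, 124 to 177 and 160 to 176. Non-WS arrays had 76.4 to 117 and severe WS arrays 78.9 to 120. Mild WS arrays had 110 to 229 and moderate WS arrays 106 to 259. The part of this brightness in the contrasts was not tested, and the number of birds limits the precision.

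Named genes were all members, in each other list a fixed set and up to 4 called genes with the largest change, and the 3 genes most alike to each member. MYOZ1, NRAP, PDLIM7, MYL4, TNNC1, ATP2A2, CCN2, MYOD1, MYF5, MYF6 and PAX7 were named after their values were seen. Alternatives were 75th percentile scaling, normexp background correction (offset 50, on median spot intensities), the authors' values, looser detection filters, no slide term and slide as a random block. Others were a replicate block, groups fitted alone, fewer WS arrays, the methods' t-test, an FDR of 0.2, no fold change criterion and each array left out. A fit on slides 1 and 2 was chosen after seeing the data. Among the arrays left out, WB3 replicate 3 was likewise singled out for the text on these data. A motif search in promoters was planned and not run here.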

Additional observations from a re-analysis of the deposited data

Results flagged for a closer look

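In 42 combinations of a member gene and a group of 4 to 7 birds, 6 had a bird set apart by Dixon's critical value. The rule was applied to normalized signals on the linear scale, not to log2 signals. Its chance rate of about 5% of groups holds for independent, normally distributed values. These combinations share birds and linear signals need not be normal, so the 6 cannot be weighed against that rate. CSRP3 was 3040 in non-WB3 replicate 2, against 157 to 500 in the other 3 birds. CSRP3 was 1940 in moderate WS replicate 5, against 56.8 to 405 in the other 5. MYOZ2 was 15600 in the same bird, against 971 to 1920 in the others. MYOZ2 was 12800 in mild WS replicate 6, against 835 to 5250 in the other mild WS birds. DES was 19400 in mild WS replicate 7, against 9660 to 12000. PDLIM3 was 30800 in non-WS replicate 2, against 63100 to 69500 in the other 3 non-WS birds. The WB groups with 2 or 3 birds, WB3 with its replicate 3 among them, were too small for this comparison.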

How the results depend on the processing

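Among the WB and WS values examined under the alternatives, no fold change of a member within an age or grade contrast changed sign. CSRP3 (2.87 to 3.07), MYOZ2 (1.83 to 2.06) and LDB3 (-1.21 to -0.94) were called over the 3 WB pairs under all 11 alternatives and in all 19 fits without 1 array. Among these alternatives, an FDR of 0.2 and no fold change criterion only loosened the threshold and could not remove a call. On WB arrays the authors' values equal the processed signal, so that setting repeated the main fit. PDLIM3 lost its call under 75th percentile scaling (0.24) and without WB1 replicate 1, WB1 replicate 2 or WB3 replicate 2 (0.45 to 0.62 over all 19 fits). ANKRD1 lost it under that scaling (0.39), with no detection filter (0.64, adjusted p = 0.065) and with the replicate block (0.62, adjusted p = 0.0558, limma), and it kept it only in the fits without non-WB1 replicate 3, non-WB2 replicates 2 or 4, non-WB3 replicates 3 or 4, WB2 replicate 2 or WB3 replicate 3. At 49 days PDLIM3 lost its call in 7 of 12 alternatives and CSRP3 in 4. DES was called with no slide term or a random slide block (0.49 in both; 0.20 and not called under 75th percentile scaling), and DES and VIM without WB3 replicate 3. The cause was not tested. The median of all probes moved by less than 0.1 under 75th percentile scaling.

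Leaving out 1 array gave 6 to 11 called member probes over the 3 pairs (9 with all arrays), 0 to 9 at 49 days (7), 0 to 5 at 45 days or under (0), 0 to 5 in WB1 against non-WB1 (2), and 0 to 0 in WB2 against non-WB2, in the difference between ages and in the 6 WS contrasts. Over all probes it gave 3358 (without WB1 replicate 2) to 13053 (without WB3 replicate 3) over the 3 pairs, 35 to 9089 at 49 days, 0 to 4271 at 45 days or under and 20 to 8117 in WB1. In the WS study it gave 0 to 151 (without moderate WS replicate 6) in moderate WS, 0 to 149 (without mild WS replicate 3) in mild WS and 0 to 3 (without severe WS replicate 4) in severe WS, each against non-WS. The 49-day probe count was 4 with 75th percentile scaling, 3 with no detection filter and 11 at an FDR of 0.2. Of all probes at 49 days, 1935 were called higher and 3275 lower with 75th percentile scaling. In WB1 it was 6 with those groups fitted alone, 0 by the methods' t-test and 8 at an FDR of 0.2. In mild WS against non-WS it was 1 at an FDR of 0.2. All probes called over the 3 pairs were 14268 at an FDR of 0.2, those of WB1 (3617) were 34 by the methods' t-test, 2170 with the replicate block, 6337 alone and 13799 at an FDR of 0.2, and those of moderate WS against non-WS (0) were 29 with normexp, 54 on slides 1 and 2 and 1688 at an FDR of 0.2. Those at 49 days (5374) were 8458 with those groups alone, 3363 by the methods' t-test and 13996 at an FDR of 0.2, and those of mild WS against non-WS (1) were 20 with a random slide block and 1678 at an FDR of 0.2.

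Replicate numbers gave no sign of pairing: deviations from group means of same-numbered birds correlated with a median r of 0.00 (-0.30 to 0.38, 41 pairs) in the WB study and 0.07 (-0.23 to 0.33, 26 pairs) in the WS study. For differently numbered birds the medians were 0.00 and -0.02. These values cannot show that birds were unpaired, and in the WS study the replicate number went with the slide. With the replicate number as a block, the member probes called were 8 over the 3 WB pairs and 4 at 49 days, where CSRP3 (2.74) and PDLIM3 (0.46) were no longer called. Under all alternatives, the probes of the array called ranged from 6782 to 14268 over the 3 pairs and from 3363 to 13996 at 49 days.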

Other observations

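Genes of muscle regeneration were measured on the same arrays. Of 9 such genes 2 rose and 1 fell, where 23.2% of all probes were called. MYOG (myogenin), a factor of differentiating myoblasts, rose in severe WB by 1.06 ± 0.25 on the log2 scale over the 3 pairs (adjusted p = 0.0145), and NCAM1, which marks regenerating and denervated fibres, by 0.79 ± 0.18 (adjusted p = 0.013), whereas CDH15 (M-cadherin) fell by 0.41 ± 0.12 (adjusted p = 0.0311, limma). MYOD1, MYF5, MYF6 and the satellite cell gene PAX7 did not pass, with PAX7 at 0.01 ± 0.16. Without WB3 replicate 3, 4 of the 9 rose, VIM and DES among them, and 1 fell, where 37.7% of all probes were called.

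Of 8 genes of the stretch response around ANKRD1, 1 rose and 2 fell beside the same 23.2%: ANKRD2 rose, and the transcription factors SRF (-0.64 ± 0.21, adjusted p = 0.0428) and EGR1 (-0.72 ± 0.24, adjusted p = 0.044) fell. CCN2, a fibrosis-linked target of mechanical signalling, was at 0.41 ± 0.27 (adjusted p = 0.267) and did not pass. In severe WS against non-WS no gene of any list was called, and MYOG was at 0.03 ± 0.42.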
